A study of Mus musculus with 7 samples.

Results

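The Toll-like receptor genes of mouse retinal microglia (rMG) are described here in animals labelled Irf8 KO, with and without laser injury of the retina. The members were taken by name, as the rows of the deposited expression table whose gene symbol is Tlr1, Tlr2, Tlr3, Tlr4, Tlr5, Tlr6, Tlr7, Tlr8, Tlr9 or Tlr13, which gave 10 of 40743 genes. Tlr11 and Tlr12, the other Toll-like receptor genes of the mouse, are given beside them. The values come from 7 RNA-seq libraries labelled Irf8 KO, 3 from unlasered mice and 4 from lasered mice. All mice were adult Cx3cr1GFP/+:Irf8-/- animals on a C57BL/6J background without the Crb1 mutation, so by label every library shares the Irf8 deletion and carries GFP in 1 copy of Cx3cr1. The lasered mice received 3 to 6 laser spots per eye, a model of choroidal neovascularisation (CNV), and rMG were taken 7 days later. rMG were sorted as CD45low CD11b+ Cx3cr1-GFP+ Ly6C- Ly6G- cells, about 10000 per library, pooled from 3 to 4 mice. Only the central 70% of the retina was used in lasered mice, so the laser and the part of the retina cannot be told apart. Irf8 WT libraries were not analysed here.

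Toll-like receptors detect molecules of microbes and of damaged cells and are carried by microglia and other macrophages. TLR1, TLR2, TLR4, TLR5 and TLR6 act at the cell surface on lipids and proteins, whereas TLR3, TLR7, TLR8, TLR9 and TLR13 act in endosomes on nucleic acids. Both classes signal through adaptors such as MYD88 and TICAM1 to NF-kB and interferon regulatory factors, which switch on cytokine, chemokine and interferon genes. IRF8 is a transcription factor of the myeloid lineage that binds DNA with partners such as PU.1.

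TLR2 forms dimers with TLR1 and with TLR6. Over the 7 libraries the level of Tlr2 had a Pearson's r of 0.89 with Tlr1 and of 0.84 with Tlr6. Both values include the difference between the groups. The DNA before the annotated starts of these 3 genes is shown as a description only. It is written 5′ to 3′ in the direction of the gene, without bases that the annotation places in an exon. The source was RefSeq promoters of GRCm38.p6. Of the 10 receptor genes, 8 had a promoter in this reference, and Tlr4 and Tlr7 had none. Capitals mark matches to GAGGAAGT, a PU.1 type motif, or to GAAA, any 2 bases and GAAA, the core of an interferon response element. The stretches are chr5:64933564-64933808 (minus strand) for Tlr1, chr3:83841768-83841858 (minus strand) for Tlr2 and chr5:64959167-64959416 (minus strand) for Tlr6, whose stretch lies in an intron before the inner of its annotated starts.
Tlr1: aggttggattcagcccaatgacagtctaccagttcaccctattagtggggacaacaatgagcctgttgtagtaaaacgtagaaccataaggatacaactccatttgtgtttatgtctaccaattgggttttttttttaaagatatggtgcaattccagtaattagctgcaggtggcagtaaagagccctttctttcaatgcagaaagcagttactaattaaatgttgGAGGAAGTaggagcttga
Tlr2: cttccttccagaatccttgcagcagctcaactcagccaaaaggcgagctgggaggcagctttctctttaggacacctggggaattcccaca
Tlr6: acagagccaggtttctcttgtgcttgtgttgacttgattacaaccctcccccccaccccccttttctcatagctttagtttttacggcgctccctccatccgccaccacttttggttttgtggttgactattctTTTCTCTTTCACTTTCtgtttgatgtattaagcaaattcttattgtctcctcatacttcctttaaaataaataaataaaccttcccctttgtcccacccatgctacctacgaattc
The Tlr1 stretch held GAGGAAGT from base -23, counting the start as 0. The Tlr6 stretch held the GAAA pair on the opposite strand, from bases -116 and -110, in matches that overlap each other. The Tlr2 promoter held neither motif, nor GGAA, any 2 bases and GAAA, a composite motif of PU.1 and IRF proteins, within 250 bases before and 50 bases after its start. Among the other receptor promoters, Tlr9 held GAGGAAGT on the opposite strand from base 10 after its start, and Tlr3, Tlr5, Tlr8 and Tlr13 held none of the 3 motifs. Tlr1 and Tlr6 each have a further annotated promoter, not printed here, which held none of the 3 motifs either. On either strand, GAGGAAGT was present in 3.20% of 32851 promoters of the same length, the composite motif in 2.72% and the GAAA pair in 3.44%. A match describes letters only.

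The libraries held 20427558 to 36022954 reads in the unlasered group and 37133297 to 45919042 in the lasered group. Levels are given in CPM, the reads of a gene scaled to the same total in every library, and 3 reads, used as the floor, were worth 0.0653 to 0.147 CPM. The floor covers counting error only. Irf8, the targeted gene, was at 530, 489 and 507 CPM in unlasered libraries 1, 2 and 3 and at 463, 465, 475 and 582 CPM in lasered libraries 1 to 4, all of it in reads listed jointly with the overlapping gene Gm20388. Its reads are therefore no check of the genotype, and the libraries are named by their label. The 12 microglia markers summed to 25733 to 30572 CPM in the unlasered and 23292 to 31381 CPM in the lasered libraries, and 0 of the 11 that could be tested passed in limma, with Sall1 at 0 to 1.36 CPM. Markers of other cells differed between libraries. The summed level of 12 rod photoreceptor markers was 1840, 17867 and 5159 CPM in the unlasered libraries and 291 to 920 CPM in the lasered ones, and 11 of the 12 were lower after laser. The summed level of 14 dendritic cell markers was 79.4 to 399 CPM in the unlasered libraries and 2908, 4783, 434 and 151 CPM in lasered libraries 1 to 4, mostly from Cd74 and H2-Ab1. The paper counts Cd74 among activation markers that were higher in rMG of Cx3cr1GFP/+ mice after laser, so this sum is not particular to dendritic cells. Within this list Ccl22 rose in limma, from 0.0292 to 0.196 CPM in the unlasered libraries to 18.1, 36.4, 8.89 and 3.53 CPM in lasered libraries 1 to 4. Ccl22 reached 1 CPM, which the test required in 3 libraries, in lasered libraries alone. The list was also chosen with earlier results of these data known, so the call adds little to the values. Cd209a was at 0 to 0.0979 CPM and at 7.61, 8.93, 2.87 and 0.242 CPM. Ccr7 was at 0.0278 to 4.16 CPM and at 74.8, 68.5, 5.34 and 3.10 CPM, and Flt3 at 0.642 to 3.28 CPM and at 15.5, 27.5, 1.74 and 3.42 CPM. Xcr1 (0.675 to 2.48 CPM) and Clec9a (0 to 0.245 CPM) were low in all 7 libraries. The part of these cells in the values below was not tested. In sorted, pooled cells a smaller share of expressing cells and less RNA per cell cannot be told apart.

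All 10 receptor genes were detected above the floor in each of the 7 libraries, but their levels covered a wide range. Per kilobase of exonic length, the unit in which genes can be compared, Tlr2 was the highest, at 104.7 ± 12.2 CPM per kb in the unlasered (SD, n = 3) and 132 ± 12.1 CPM per kb in the lasered libraries (SD, n = 4). Tlr13, which detects bacterial ribosomal RNA, had 97.4 ± 31.4 and 82.0 ± 6.60 CPM per kb. The level of Tlr7, a receptor for single-stranded RNA, was 83.1 ± 23.2 and 85.7 ± 10.96 CPM per kb. Tlr4, the receptor for lipopolysaccharide, followed with 40.0 ± 9.28 and 34.9 ± 3.23 CPM per kb. These 4 genes stood above the rest in both groups by their means. Tlr8, Tlr1, Tlr6 and Tlr3 lay between 7.32 and 26.2 CPM per kb in their group means. At the lower end, Tlr5, the receptor for flagellin, had 1.75 ± 1.12 and 1.40 ± 0.550 CPM per kb, and Tlr9, the receptor for unmethylated CpG DNA, had 0.336 ± 0.144 and 0.848 ± 0.356 CPM per kb. Thus mean levels differed by more than 100-fold within the family.

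The order of unlasered levels per kilobase was Tlr2, Tlr13, Tlr7, Tlr4, Tlr8, Tlr1, Tlr6, Tlr3, Tlr5 and Tlr9. Only 4 neighbours in that order were apart by more than their SDs, namely Tlr7 over Tlr4, Tlr1 over Tlr6, Tlr3 over Tlr5 and Tlr5 over Tlr9. In the lasered order, Tlr2, Tlr7, Tlr13, Tlr4, Tlr1, Tlr8, Tlr6, Tlr3, Tlr5 and Tlr9, 6 neighbours were apart, and Tlr7 with Tlr13, Tlr1 with Tlr8 and Tlr5 with Tlr9 were not. The deposited counts may include introns, so the whole gene span was tried in place of exonic length. It kept the order of 39 of 45 pairs in the unlasered and of 38 in the lasered group, with Tlr2, Tlr13 and Tlr7 still on top and Tlr4, whose span is 102701 bases, in place 8.

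**Figure D1:**
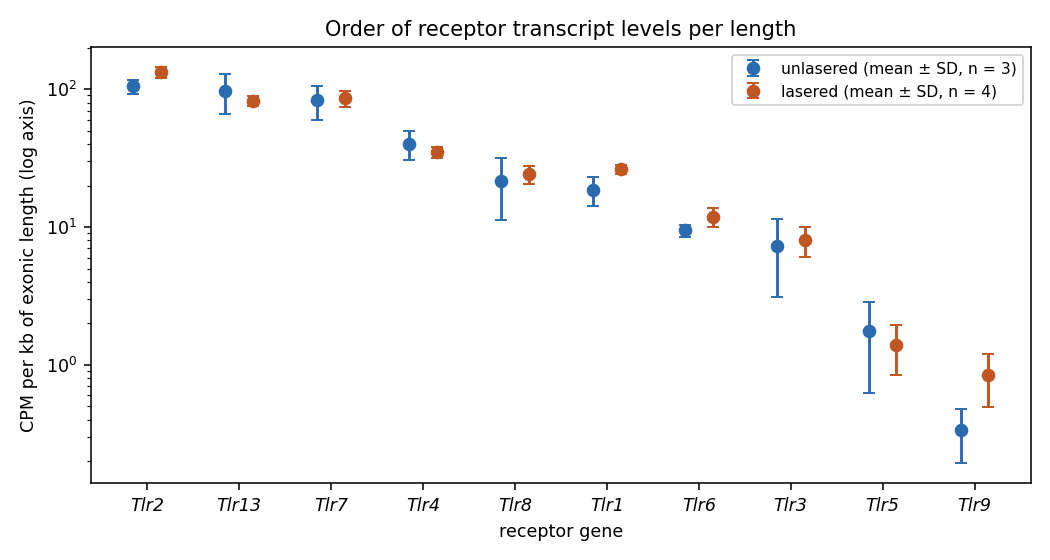
Levels of the 10 receptor genes in CPM per kilobase of exonic length on a log axis; points are group means and bars the SD over 3 unlasered (blue) and 4 lasered (orange) libraries. Tlr2 is the highest, from 104.7 to 132 CPM per kb, and Tlr9 the lowest, from 0.336 to 0.848 CPM per kb.

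To ask how the receptor genes responded to laser injury, the 2 groups were compared with limma on log2(CPM + 1), with p-values adjusted over 17496 genes by the Benjamini-Hochberg method. Of the 10 receptor genes, 0 passed an adjusted p of 0.05, against 6.93% of all tested genes, 3.86% higher and 3.07% lower. At an unadjusted p under 0.05 there were 3 members, Tlr1, Tlr2 and Tlr9, all higher after laser. Of all tested genes 11% were higher at that level and 22.7% differed in either direction. edgeR and DESeq2 on the recovered reads also called 0 members, with 3 each at an unadjusted p under 0.05. The median log2 fold change of the members was 0.24 against -0.01 for all tested genes. The groups did not overlap for Tlr1 and Tlr2, 2 of 10 members, both higher in the lasered libraries, against 10.4% of all tested genes and 21% in either direction.

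**Figure D2:**
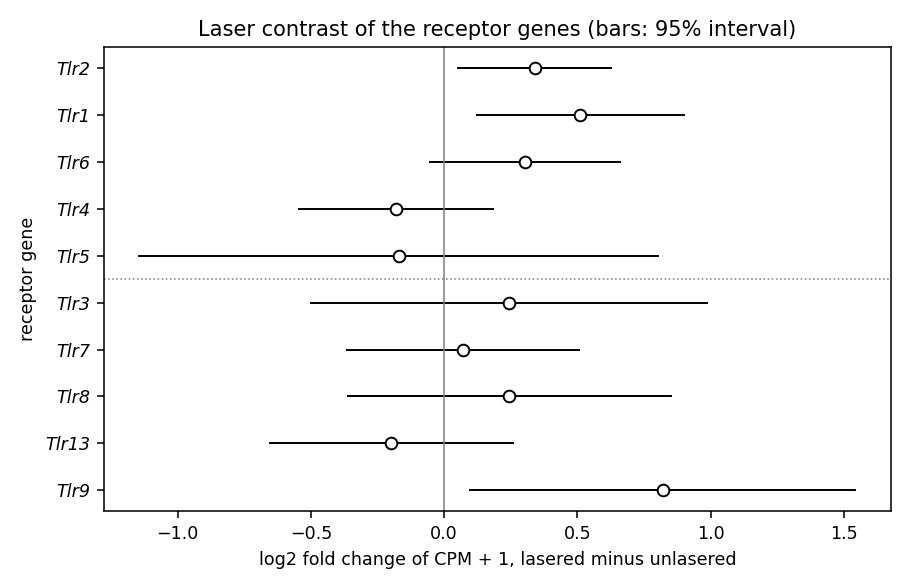
Difference between lasered and unlasered libraries for each receptor gene, as the log2 fold change of CPM + 1 with its 95% interval from limma; cell surface receptors stand above the dotted line and endosomal receptors under it. The intervals of Tlr1, Tlr2 and Tlr9 lie above 0, and 0 of 10 genes passed after adjustment.

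Tlr2 and its partners Tlr1 and Tlr6 were on average higher in the lasered libraries. Tlr2 (ENSMUSG00000027995, chromosome 3 of GRCm38, 83836272 to 83841767, protein-coding), which detects bacterial lipoproteins, was at 338, 273 and 335 CPM in unlasered libraries 1, 2 and 3 and at 399, 357, 446 and 394 CPM in lasered libraries 1, 2, 3 and 4. Each lasered library was above each unlasered one. The log2 fold change was 0.34 (95% interval 0.05 to 0.63, limma adjusted p = 0.151). Tlr1 (ENSMUSG00000044827, chromosome 5, 64924679 to 64933563), the partner for triacylated lipoproteins, was at 61.8, 47.5 and 77.3 CPM in the unlasered and at 89.5, 87.3, 95.3 and 78.4 CPM in the lasered libraries. Here too the groups did not overlap, although unlasered library 3 and lasered library 4 lay close together. The log2 fold change of Tlr1 was 0.51 (0.12 to 0.90, limma adjusted p = 0.114), without unlasered library 3 it was 0.68 (limma adjusted p = 0.0352), which passes, and without unlasered library 2 it was 0.33 (limma adjusted p = 0.291). Tlr6 (ENSMUSG00000051498, chromosome 5, 64952031 to 64960097), the partner for diacylated lipoproteins, was at 39.2, 32.2 and 34.3 CPM in the unlasered and at 42.7, 42.5, 53.5 and 37.3 CPM in the lasered libraries. Lasered library 4 fell below unlasered library 1, so the groups overlapped, and the log2 fold change was 0.30 (-0.05 to 0.66, limma adjusted p = 0.296). Tlr1 and Tlr6 are neighbours on chromosome 5, 18.5 kb apart, and 15.4% of the 50-base stretches of Tlr1 transcripts and 12.3% of those of Tlr6 recur in transcripts of another gene, in the first place of each other. How reads in these stretches were split cannot be seen in the counts, and both values are uncertain to that extent. Tlr2 shared 0 such stretches.

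Tlr4 and Tlr5, the other surface receptors, were on average lower in the lasered libraries. Tlr4 (ENSMUSG00000039005, chromosome 4, 66827584 to 66930284) was at 201, 185 and 281 CPM in the unlasered and at 198, 171, 215 and 191 CPM in the lasered libraries. Unlasered library 3 was the highest of all, and the remaining 6 libraries lay within 171 to 215 CPM. The log2 fold change was -0.18 (-0.54 to 0.18, limma adjusted p = 0.565) and 0.00064 without unlasered library 3. Tlr5 (ENSMUSG00000079164, chromosome 1, 182954788 to 182976044) was at 7.98, 3.18 and 13.9 CPM and at 3.65, 7.97, 5.53 and 9.61 CPM, with 109 to 502 reads per library. Both groups spread over a wide range and overlapped (log2 fold change -0.17, -1.14 to 0.80, limma adjusted p = 0.855). Its sign turned without unlasered library 3 (0.26) and without lasered library 1 (0.05).

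Tlr7, Tlr8 and Tlr13, endosomal receptors for RNA, are encoded on the X chromosome, and their groups overlapped. Tlr13 (ENSMUSG00000033777, X, 106143204 to 106160493) was at 413, 287 and 557 CPM in the unlasered and at 384, 335, 323 and 370 CPM in the lasered libraries. The unlasered libraries stood on both sides of the lasered ones (log2 fold change -0.20, -0.65 to 0.26, limma adjusted p = 0.619), and the value was 0.033 without unlasered library 3. Tlr7 (ENSMUSG00000044583, X, 167304929 to 167330558) was at 332, 249 and 437 CPM and at 391, 289, 345 and 375 CPM. It had the smallest difference of the members, 0.07 (-0.36 to 0.51, limma adjusted p = 0.863), which was -0.13 without unlasered library 2. Tlr8 (ENSMUSG00000040522, X, 167242696 to 167264329), a further receptor of the RNA sensing group and the neighbour of Tlr7 at a distance of 40.6 kb, was at 50.9, 61.9 and 120 CPM and at 103, 71.0, 86.7 and 85.4 CPM. Its log2 fold change was 0.24 (-0.36 to 0.85, limma adjusted p = 0.648), and -0.0044 without unlasered library 1. The labels give no sex. Xist, from the X chromosome, was at 32.0 to 73.9 CPM and Ddx3y, from the Y chromosome, at 49.3 to 69.2 CPM in the 7 libraries. Both have reads listed jointly with another gene. The Y genes Uty (13.9 to 29.5 CPM), Eif2s3y (17.9 to 32.7 CPM) and Kdm5d (2.15 to 11.8 CPM) have none. Each library therefore held Y transcripts, whereas Xist is uncertain to the extent of its joint reads. These genes were chosen after values were seen.

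The remaining endosomal receptors, Tlr3 and Tlr9, had lower levels per kilobase than those on the X chromosome. Tlr3 (ENSMUSG00000031639, chromosome 8, 45395665 to 45411080), the receptor for double-stranded RNA, was at 22.0, 29.3 and 63.0 CPM in the unlasered and at 42.6, 32.5, 55.6 and 36.5 CPM in the lasered libraries. The unlasered libraries held both the lowest values and the highest one (log2 fold change 0.24, -0.50 to 0.99, limma adjusted p = 0.720), and the sign turned without unlasered library 1 (-0.069). Exons of Gm45542 overlap those of Tlr3 on the other strand, and 5.30% of its 50-base stretches are shared with that gene. Since the library kit does not mark strand, reads of the 2 genes cannot be told apart there. Tlr9 (ENSMUSG00000045322, chromosome 9, 106222598 to 106226883) was at 1.17, 1.66 and 0.666 CPM in the unlasered and at 3.58, 3.36, 3.75 and 1.10 CPM in the lasered libraries, from 24 to 172 reads per library. Lasered libraries 1, 2 and 3 were above all unlasered libraries, and lasered library 4 was below 2 of them. The log2 fold change of Tlr9 on the log2(CPM + 1) scale, which understates changes of low genes, was 0.82 (0.10 to 1.54, limma adjusted p = 0.166). It was 1.10 without lasered library 4 (limma adjusted p = 0.0423), which passes.

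**Figure D3:**
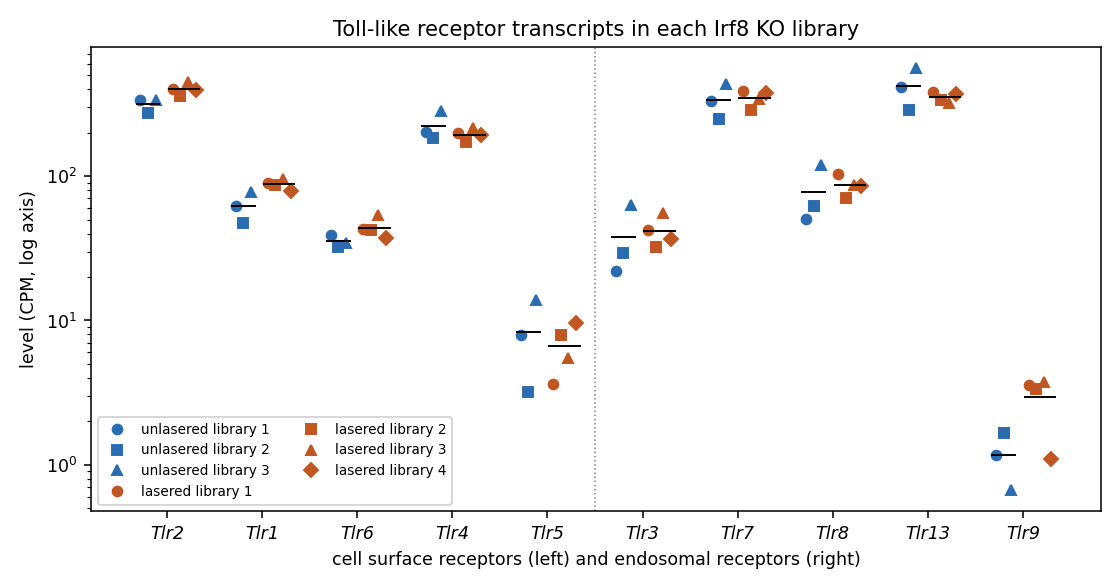
Level of each receptor gene in each library, in CPM on a log axis, with surface receptors left and endosomal receptors right of the dotted line; symbols mark the library number, blue the 3 unlasered and orange the 4 lasered libraries, and lines the group means. Unlasered library 3 (blue triangle) is the highest of the 7 for Tlr3, Tlr4, Tlr5, Tlr7, Tlr8 and Tlr13.

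Tlr11 and Tlr12, which detect a profilin of protozoan parasites, had the lowest mean levels per kilobase of the receptor genes. Tlr12 (ENSMUSG00000062545, chromosome 4, 128615443 to 128618619) had 3, 1 and 1 reads in the unlasered libraries, at or under the floor, and 39, 51, 31 and 42 reads in the lasered libraries, which is 0.884, 1.14, 0.675 and 1.13 CPM. The groups did not overlap. Over the summed reads the rate was 17.2 times as high after laser (95% exact interval 7.21 to 53.6, for counting error only). Tlr12 missed the minimum of 1 CPM in 3 libraries. Without a filter on low values its log2 fold change was 0.87 (limma adjusted p = 0.0465). This value is on the log2(CPM + 1) scale, which understates changes of low genes. With a mean of at least 10 reads, which Tlr12 met only through the lasered libraries, the limma adjusted p was 0.0215. A filter met through the higher group favours a call, so that p-value is no independent support. edgeR without a filter, chosen after the data were seen, gave a log2 fold change of 4.05 and an edgeR adjusted p of 0.00818. With a mean of at least 10 reads, the call was lost without lasered library 1 (limma adjusted p = 0.0627) and without lasered library 2 (0.0730). Even after laser its reads were few, and its mean level of 0.301 CPM per kb was below the 0.848 CPM per kb of Tlr9. Tlr11 (ENSMUSG00000051969, chromosome 14, 50357914 to 50363663) had 1 read in unlasered library 1, 20 reads in lasered library 2 and 0 in the other libraries, where 0 reads allow up to 0.0653 to 0.0876 CPM.

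Across members, the single libraries left a common mark. Unlasered library 3 was the highest of the 7 for 6 of 10 members, Tlr3, Tlr4, Tlr5, Tlr7, Tlr8 and Tlr13, against 18.1% of all tested genes. Unlasered library 2, the library with most rod transcripts, was the lowest for 6 members, Tlr1, Tlr2, Tlr5, Tlr6, Tlr7 and Tlr13, against 15.9% of all tested genes. A link with the rod transcripts was not tested. Some members vary together over the libraries, so such counts are not counts of separate events. Tlr1, Tlr2, Tlr6 and Tlr9, 4 of 10 members, were highest in lasered library 3, against 10.4% of all tested genes. In sum the 10 genes had 1468, 1169 and 1920 CPM in the unlasered and 1656, 1397, 1629 and 1578 CPM in the lasered libraries, so the unlasered sums enclosed the lasered ones. Surface receptors made up 38.6% to 46.3% of this sum in the unlasered and 44.2% to 50.0% in the lasered libraries.

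Ratios within a library do not depend on the scaling to its total. 6 ratios were formed after the levels were seen and are given without a test. The ratio of Tlr2 to Tlr4 CPM was 1.68, 1.48 and 1.19 in the unlasered and 2.02, 2.08, 2.08 and 2.06 in the lasered libraries. These groups did not overlap, and the 4 lasered libraries were nearly alike. Tlr13 to Tlr7 was 1.24, 1.154 and 1.27 in the unlasered and 0.981, 1.16, 0.938 and 0.988 in the lasered libraries. Here lasered library 2 lay within the unlasered range. Tlr2 to Tlr1 ranged from 4.33 to 5.75 in the unlasered and from 4.09 to 5.03 in the lasered libraries. Tlr2 to Tlr6 was between 8.48 and 9.76 and between 8.33 and 10.6. The neighbouring genes Tlr1 and Tlr6 had ratios of 1.48 to 2.25 and of 1.78 to 2.10, and Tlr7 to Tlr8 of 3.66 to 6.53 and of 3.79 to 4.39. Except for Tlr2 to Tlr4, 1 of 6, the ratios overlapped between groups. The share over other gene pairs was not computed, and of single tested genes 21% did not overlap in either direction.

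**Figure D4:**
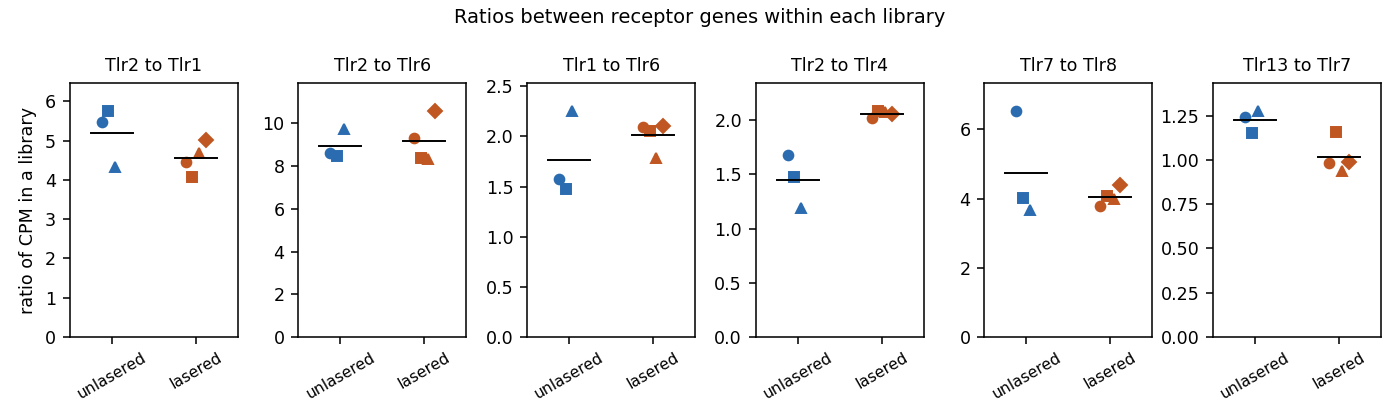
Ratios of CPM between pairs of receptor genes within each library, on linear axes from 0; symbols mark the library number, blue the 3 unlasered and orange the 4 lasered libraries, and lines the group means. Tlr2 to Tlr4 is 1.19 to 1.68 in unlasered and 2.02 to 2.08 in lasered libraries, and the other pairs overlap.

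The pattern of Tlr2, the member with the highest level per kilobase, was compared with 10287 genes over the 7 libraries. The genes most like it by Pearson's r of log2(CPM + 1) were Abhd17c (0.98), Siglece (0.97) and BC026585 (0.97). Abhd17c was at 86.4, 67.4 and 83.9 CPM in the unlasered and at 99.6, 94.0, 109 and 96.0 CPM in the lasered libraries. Siglece, an inhibitory sialic acid receptor, was at 249, 195 and 235 CPM and at 350, 311, 440 and 342 CPM. Both rank the 7 libraries as Tlr2 does. Among the receptors, Tlr1 (r = 0.89) was in place 57 and Tlr6 (0.84) in place 153 of these genes, and Tlr7 (0.54), Tlr3 (0.46), Tlr8 (0.43), Tlr4 (0.05) and Tlr13 (0.05) were further down. These correlations describe 7 libraries of 2 groups that share depth and cell makeup, and they include the difference between the groups.

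Among the partners, signalling genes and targets of the receptors, some passed the test. Of 65 listed genes of the receptor pathway, 60 could be tested, and 7 rose and 0 fell after laser in limma (11.7% called, against 6.93% of all tested genes, of which 3.86% rose). The lists were chosen with earlier results of these data known, so this share is a description and no independent support. The median log2 fold change of the 60 genes was 0.15. Of 9 tested target cytokine genes 3 rose, with a list median of 0.72. Ccl5, a chemokine for T cells and monocytes, was at 2.59, 5.93 and 2.55 CPM in the unlasered and at 30.6, 29.4, 15.5 and 14.6 CPM in the lasered libraries (log2 fold change 2.32, 1.55 to 3.10, limma adjusted p = 0.00947). Ccl4, a chemokine of activated macrophages, was at 11.99, 9.67 and 9.11 CPM and at 24.1, 33.9, 37.3 and 26.1 CPM (1.47, 1.02 to 1.91, limma adjusted p = 0.00749). Ccl2, which attracts monocytes, was at 6.07, 5.40 and 2.97 CPM and at 10.6, 8.22, 14.7 and 11.1 CPM (1.08, 0.49 to 1.67, limma adjusted p = 0.0425). In these 3 genes every lasered library was above every unlasered one. Ccl3, the highest of the list, was at 27.6 ± 10.04 CPM (SD, n = 3) and 46.2 ± 15.25 CPM (SD, n = 4) and did not pass (limma adjusted p = 0.195). Il6, Il12b, Ptgs2 and Ifnb1 were too low to test, and Ifnb1 had 0 reads in all 7 libraries.

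Among 11 transcription factors 2 rose. Irf7, which carries signals of TLR7 and TLR9 to interferon genes, was at 70.9, 85.5 and 74.1 CPM in the unlasered and at 337, 316, 239 and 206 CPM in the lasered libraries. The groups lay far apart (log2 fold change 1.80, 1.38 to 2.22, limma adjusted p = 0.00265). Relb, a subunit of NF-kB, was at 33.3, 35.8 and 39.4 CPM and at 49.5, 60.4, 49.7 and 53.1 CPM (0.54, 0.23 to 0.85, limma adjusted p = 0.0477). Irf5, the highest of the list at 202 ± 26.4 and 199 ± 22.1 CPM, did not pass (limma adjusted p = 0.954). Of 6 co-receptor genes, Cd180, a TLR4-like molecule that pairs with LY86, was the one that rose, from 43.9, 31.1 and 48.9 CPM to 82.0, 69.6, 73.6 and 56.5 CPM (0.77, 0.34 to 1.20, limma adjusted p = 0.0460), whereas Cd14, the highest of them, was at 526 ± 88.9 and 434 ± 82.2 CPM (limma adjusted p = 0.381). Of 8 inhibitors, Sigirr, a receptor that dampens interleukin and Toll-like receptor signals, rose from 0.0490, 0 and 1.89 CPM to 7.001, 5.43, 2.57 and 2.99 CPM (1.85, 0.88 to 2.81, limma adjusted p = 0.0374), and Nfkbia, the highest, was at 237 ± 47.7 and 217 ± 71.3 CPM (limma adjusted p = 0.745). Unlasered library 2 had 0 Sigirr reads and library 1 had 1. Of the unlasered libraries only library 3 reached 1 CPM. Sigirr thus entered the test through the lasered libraries, where it was high, and its call adds little to these values.

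In the 3 other lists no gene passed. Of 8 chaperones and proteases of the endosome, the median log2 fold change was 0.19. Ctss, a protease that cuts endosomal receptors, was the highest at 4884 ± 941 and 6106 ± 481 CPM (limma adjusted p = 0.196), with part of its reads listed jointly with an overlapping gene. The 5 adaptor genes had a median of -0.28, and Pik3ap1, the highest, was at 274 ± 100.2 and 371 ± 27.5 CPM (limma adjusted p = 0.196, and 0.0144 without unlasered library 3, which passes). Myd88 was not analysed here because its reads are listed only jointly with a neighbouring gene. The 13 kinases and ubiquitin ligases had a median of 0.21, and Irak2, the highest and also partly joint, was at 171 ± 20.3 and 159 ± 17.9 CPM (limma adjusted p = 0.727).

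The rises of Irf7, Ccl4 and Ccl5 passed with each library left out in turn, with limma adjusted p of at most 0.0163 for Irf7, 0.0356 for Ccl4 and 0.0392 for Ccl5. With the replicate number added to the fit as a block, none of them passed (limma adjusted p = 0.0708, 0.0904 and 0.0708). The other 4 calls were close to the threshold. With 1 library left out, Cd180 passed only without unlasered library 3 or lasered library 4 (adjusted p up to 0.129), Sigirr only without unlasered library 3 (up to 0.103), Relb only without unlasered library 3 (up to 0.143) and Ccl2 only without unlasered library 1 (up to 0.105). With edgeR on the recovered reads, Sigirr (log2 fold change 2.75, edgeR adjusted p = 0.185) and Ccl2 (edgeR adjusted p = 0.0535) did not pass, and with DESeq2 Sigirr did not (DESeq2 adjusted p = 0.270). Without trend and robust estimation, Cd180 (limma adjusted p = 0.0605) and Relb (0.0647) did not pass, and with libraries thinned to the smallest total Ccl2 (0.0526) and Relb (0.0550) did not. Irf7 and Ccl5 were higher in lasered libraries 1 and 2 than in libraries 3 and 4. Libraries 1 and 2 also had the highest sums of the dendritic cell markers, mostly from Cd74 and H2-Ab1. The part of dendritic cells in the rises and in that spread was not tested.

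**Figure D5:**
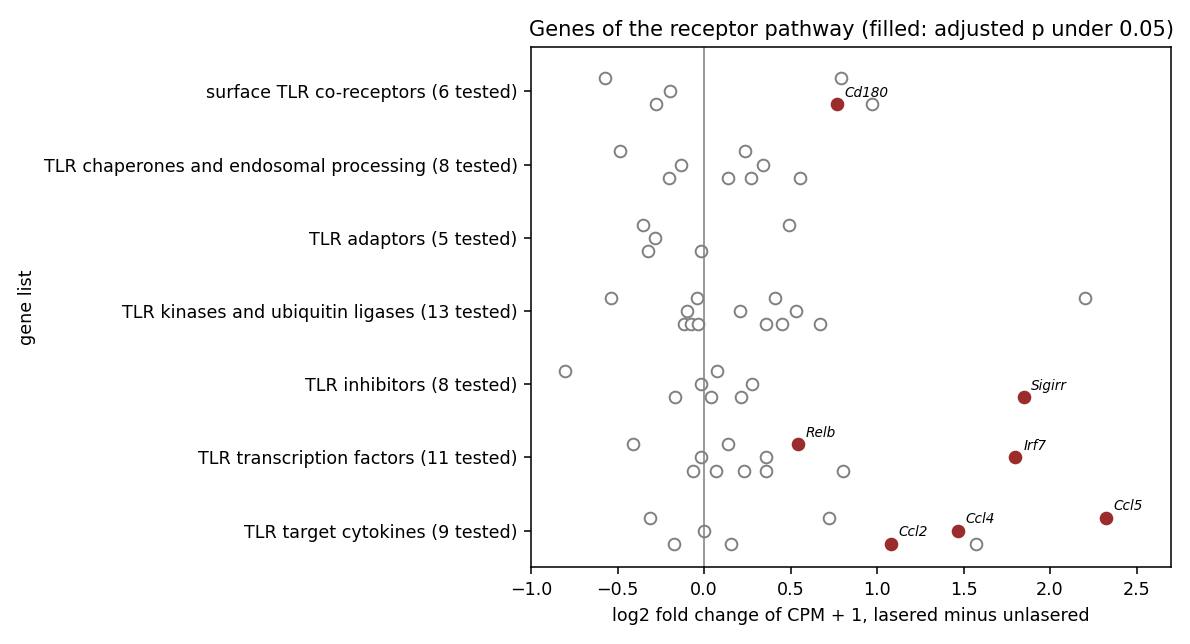
Log2 fold change of CPM + 1, lasered minus unlasered, for the 60 tested genes of 7 lists around the receptors; each point is a gene, spread vertically within its list for legibility, and filled points passed an adjusted p of 0.05 in limma. The 7 filled genes, Cd180, Sigirr, Relb, Irf7, Ccl2, Ccl4 and Ccl5, all lie to the right of 0, with Ccl5 the farthest at 2.32.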

How the data were processed

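RNA-seq values of 7 libraries of sorted Irf8 KO rMG were analysed. The authors extracted total RNA, made libraries with a SMARTer kit, removed adapters with cutadapt and duplicates with FastUniq, aligned with bowtie2 and counted genes with HTSeq (Ensembl annotation 90; GRCm38 per the labels). The deposited values are headed TPM but are CPM. Each is a whole multiple of 1 step per library, and whole reads were recovered for 100% of values up to 5000 reads, within 0.05 read. Joint reads of overlapping genes enter 4492 genes of the table; none of the 12 receptor genes does.

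Groups came from the labels, which do not say whether replicates were separate pools on separate days, so p-values measure the spread between these libraries. The 2 groups were compared on log2(CPM + 1) with limma 3.58.1 (R 4.3.3), with trend and robust empirical Bayes, two-sided, over the 17496 genes that reached 1 CPM in 3 or more libraries, at an adjusted p (Benjamini-Hochberg) of 0.05. The test was checked on simulated data. Exonic lengths, spans and coordinates came from GENCODE M21, which matched 99.69% of first gene identifiers, and promoters from RefSeq. Alternatives included edgeR 4.0.16 and DESeq2 1.42.0. Tables and figures were made in Python 3.11.15 (scipy 1.17.1, matplotlib 3.10.9; pandas 2.3.3).

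The members and all gene lists were chosen with earlier results of these data known. Named were all members, Tlr11, Tlr12, Irf8, the called genes and the highest gene of each pathway list, and the 3 genes most like Tlr2. Marker lists covered microglia and 7 other cell groups. Protein was not measured.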

Additional observations from a re-analysis of the deposited data

Results flagged for a closer look

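Of 37 values checked in the 4 lasered libraries, 4 had a library far from the others, where chance gives about 1 in 20. Tlr9 was at 1.10 CPM in lasered library 4, against 3.36 to 3.75 CPM in the other lasered libraries. Tlr11 was at 0.445 CPM in lasered library 2, with 20 reads, and at 0 in the other 3. Irf8 was at 582 CPM in lasered library 4, against 463 to 475 CPM. The ratio of Tlr1 to Tlr6 was 1.78 in lasered library 3, against 2.06 to 2.10. The causes were not tested.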

How the results depend on the processing

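For the 10 receptor genes, 161 of 170 values under other settings kept their direction and their side of the threshold. Tlr1 passed without unlasered library 3 (0.68) and Tlr9 without lasered library 4 (1.10), so 0 to 1 members rose with 1 library left out and 0 under each other setting. With 1 library left out Tlr1 ranged from 0.33 to 0.68. The 7 reversals, none of which passed, came from leaving out 1 library. The log2 fold change then ranged from -0.069 to 0.67 for Tlr3, from -0.30 to 0.00064 for Tlr4, from -0.66 to 0.26 for Tlr5 (also 0.05), from -0.13 to 0.27 for Tlr7, from -0.0044 to 0.60 for Tlr8 and from -0.44 to 0.033 for Tlr13. For all genes, against 676 higher and 537 lower, there were 212 and 173 without a filter, 1177 and 1141 with DESeq2, 149 to 850 and 113 to 556 with 1 library left out, and 836 lower with edgeR without a filter. Of the pathway genes, against 7 higher and 0 lower, 3 were higher without a filter and 4 with a mean of at least 10 reads, 10 were higher and 3 lower with DESeq2, and 3 to 9 were higher and 0 to 1 lower with 1 library left out. The causes were not tested. The replicate block left 2 genes higher and 1 lower of all genes, 0 pathway genes and 0 members. Deviations from the group means of same-numbered libraries had r = -0.18, -0.13 and -0.02. So few correlations cannot tell whether the numbers pair the libraries, and the labels do not say. Levels of Tlr9, Tlr11 and Tlr12 rest on few reads.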

Other observations

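Further genes and lists of the pathway and of other cells are given here as values. Ikbke, a kinase upstream of interferon genes that was named after its values were seen, was at 0.196, 1.46 and 3.39 CPM in the unlasered and at 19.2, 19.2, 11.7 and 1.62 CPM in the lasered libraries (log2 fold change 2.20, limma adjusted p = 0.104). It was high in 3 of 4 lasered libraries and within the unlasered range in the remaining one.

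Of 8 monocyte markers, 6 were tested and Fn1 rose, and their summed level was 111 to 393 CPM in the unlasered and 275 to 979 CPM in the lasered libraries, with Ly6c2, which encodes the antigen gated out in the sort, at 0.0436 to 0.891 CPM. The 8 neutrophil markers summed to 0.730 to 11.5 and 0.727 to 8.33 CPM, and Ly6g was at 0 to 0.147 CPM. Of 7 border macrophage markers, Pf4 and Ms4a7 fell, and the sums were 2818 to 3107 and 1938 to 2228 CPM. The 8 markers of B cells and plasmacytoid dendritic cells, cells known for high Tlr9, had no call and sums of 1190.3 to 1373 and 1049 to 1299 CPM, mostly from Siglech, which microglia also express. Of 14 dendritic cell markers, Ccl22 rose, which had entered the test through the lasered libraries alone. Of 8 Mueller glia markers, Dkk3 fell, and the sums of 52413 to 77388 and 29568 to 72724 CPM came mostly from Apoe, which microglia express as well.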
